A study of Mus musculus with 4 samples.

Results

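The nuclear genes for the subunits of respiratory chain complexes III and IV and of ATP synthase (complex V) were followed in intestinal stem cells (ISCs) of young and old mice. Members were chosen by name: symbols that start with Uqcr, Cox4 to Cox8 or Atp5, plus Cyc1 and Cycs, with 6 hyphenated names left out. This gave 45 of the 52459 genes in the count table, 9 for complex III, 18 for complex IV, 17 for complex V and the electron carrier gene Cycs. The rule also takes in Cox7a2l, Atp5s and Atp5sl, which are not classical subunits and are marked as such where they are described. The data set compared ISCs of wild-type (WT) C57/Bl6 mice at 2 months (ISC_2mth, young) and at 22 months (ISC_22mth, old), to describe how transcription in these cells changes with age. Each age had 2 libraries, each from the sorted cells of a pool of 5 animals, so 4 pools stand for all animals and an animal's own value cannot be read. The labels name no transgene and no treatment, and the study's Methods name female mice. Cells were sorted from small intestinal crypts as EPCAM+, CD166+, EPHB2high, CD44high, CD24med and GRP78low cells without CD45 or CD31, and their RNA was amplified along whole transcripts by single primer isothermal amplification (SPIA), without molecular identifiers.

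Complex III passes electrons from ubiquinol to cytochrome c, complex IV passes them on to oxygen, and both pump protons across the inner mitochondrial membrane. Complex V lets the protons flow back through a ring of c subunits and uses the rotation of that ring to make ATP in its F1 head. Each complex mixes subunits encoded in the nucleus with a few encoded by mitochondrial DNA, and several complex IV subunits have paralogues used mainly in muscle, lung or testis.

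Counted reads per library were between 11662654 and 15975698, of which mitochondrially encoded genes took between 62.6% and 73.8%, the larger shares in both old pools. A gene was tested if any pool had over 5 reads and over 1 CPM (reads scaled by the library's total) for it, which held for 13692 genes. Levels below are CPM after TMM normalization, which scales the libraries on the bulk of the genes, and differences are log2 fold changes of old over young ISCs with a standard error (SE) from edgeR. An adjusted p is from edgeR's quasi-likelihood test with Benjamini-Hochberg adjustment over all genes tested, with 0.05 as the threshold. With 2 pools an age, an exact permutation test cannot go below p = 0.33, so all tests rest on the spread shared across genes. Replicate pools differed by more than counting noise, and the labels name nothing beyond the pool that separates them, so p-values measure the spread between pools. The ISC markers Lgr5, Olfm4, Smoc2, Ascl2, Axin2, Sox9 and Rgmb were present in every pool, with a summed level of 1855 to 1989 CPM in young and 1693 to 1878 CPM in old ISCs. Most of that sum is Olfm4, and 5 of the 7 had a log2 fold change below 0. None passed the threshold, though Axin2 did under 10 of 12 alternative settings, and at an unadjusted p under 0.05 Axin2 (-0.46), Sox9 (-0.28) and Rgmb (-0.34) were lower and Ascl2 (0.33) was higher. In bulk RNA, fewer cells of a type and less RNA per cell cannot be told apart.

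Of the 45 members, 40 passed the filter, and 5 complex IV isoforms did not. Uqcrfs1 (complex III) and Atp5f1 (complex V) rose in old ISCs, Cox6b2 (complex IV) fell, and the other 37 tested members did not pass the threshold. The 3 called members are 7.5% of those tested, beside 2.26% of all genes (1.63% higher and 0.628% lower in old ISCs). An unadjusted p under 0.05 was found for 17 tested members, 16 of them higher in old ISCs, or 42.5% beside 16.9% of all genes (9.26% higher and 7.65% lower). Both ISC_22mth pools exceeded both ISC_2mth pools for 24 members (60% beside 24% of all genes), both were lower for 2 (beside 23.6% of all genes), and the pools overlapped for 14. The 24 include near ties: the nearest young and old pools were at 8.75 and 8.76 CPM for Atp5l and at 1.3915 and 1.3923 CPM for Cycs. The log2 fold change was above 0 for 37 of 40 members (92.5%, beside 49.5% of all genes), and for 6 of 40 with scaling by total counts. Their median log2 fold change was 0.27, beside -0.0049 over all genes, so most of these differences are of a size that the test did not call gene by gene. By complex the medians were 0.17 for complex III, 0.26 for complex IV and 0.32 for complex V. Over all 13692 genes tested the log2 fold change also rose with the level (Spearman rho 0.24), where all genes share the same 4 libraries. Over the 40 members the rho was 0.13. The shares over all genes given beside the members are not matched for level.

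The count of called members depended on the pools and on the scaling. Without ISC_22mth replicate 1 it was 11, 10 of them higher (beside 4.8% of all genes), and without ISC_22mth replicate 2 it was 5 (beside 5.22%). Without ISC_2mth replicate 1 it was 2 (beside 1.15%), and without ISC_2mth replicate 2 it was 4 (beside 2.17%). With no filter on low counts 7 members were called, 6 of them higher (beside 2.24%), and voom with sample quality weights called 4, all higher (beside 2.34%). Scaling by total counts, in which the mitochondrial share counts as depth, called 0 members higher and 4 lower (beside 34% of all genes, 96 higher and 4554 lower). It also moved the median of all genes to -0.50, and the medians of complexes III, IV and V lay 0.17, 0.26 and 0.34 above that shift.

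Markers of enterocytes, the absorptive cells that ISCs give rise to, were also higher in old ISCs: their summed level was 847 to 867 CPM in young and 1175 to 1341 CPM in old pools. Of 12 enterocyte markers 11 had a log2 fold change above 0, and Fabp1, Sis and Apob passed the threshold with log2 fold changes of 2.35, 1.38 and 0.53. Paneth cell markers, 2 of 7 of which passed, summed to 720 to 936 CPM in young pools and to 805 to 2074 CPM in old pools, with the high value in ISC_22mth replicate 1. Leukocyte markers summed over 12 genes to 9 and 7 counts in young and 18 and 10 counts in old pools. After scaling this was 0.62 and 0.46 CPM against 1.36 and 0.82 CPM, both old pools being higher. Of the 12 genes 6 were at 0 in every pool, Cd3g, Cd4, Itgax and Adgre1 among them, and none reached the filter. Tuft cell markers were at 3.10 and 5.04 CPM in young and 9.01 and 5.81 CPM in old pools. Of 6 such markers 3 were tested, and Dclk1 was called at a log2 fold change of 3.09 (edgeR adjusted p = 0.0258). It had 4, 4, 42 and 19 reads and was called under 10 of 11 alternative settings. Voom with sample quality weights did not call Dclk1 (adjusted p = 0.0873). The other 2 tested, Trpm5 (0.94) and Pou2f3 (-0.21), were not called. Proliferation markers were at 1393 and 1437 CPM in young and 1481 and 1651 CPM in old pools, both old pools being higher, and 0 of 5 passed. The summed levels of goblet and enteroendocrine markers overlapped between ages. Markers of mesenchymal and endothelial cells came to 4 and 3 counts in young and 10 and 12 counts in old pools over 8 genes, both old pools being higher. The part of these markers in the differences of the respiratory genes was not tested.

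**Figure D1:**
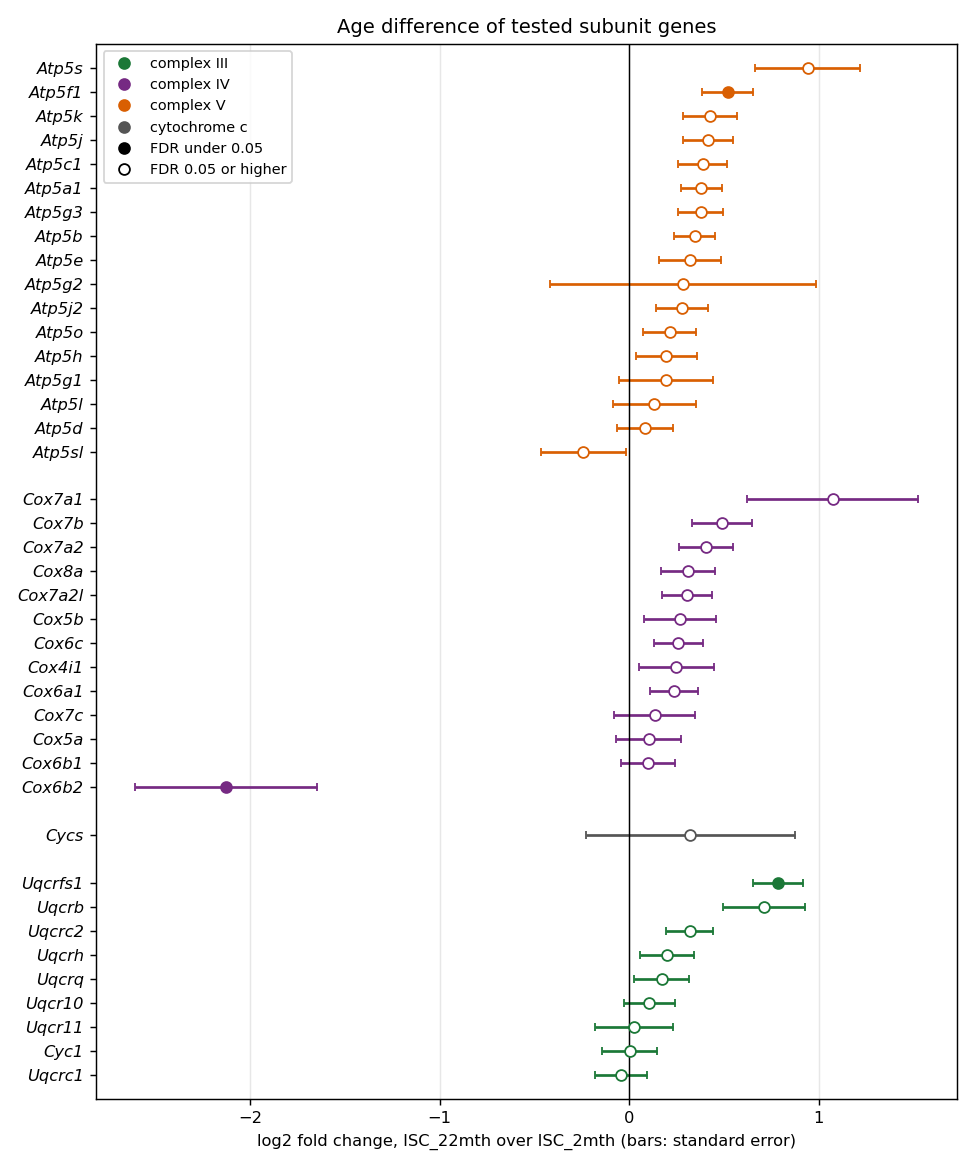
Log2 fold change (x axis, ISC_22mth over ISC_2mth, bars give the standard error) of the 40 tested members (y axis), grouped and coloured by complex, with filled points for an adjusted p under 0.05. Nearly all points lie to the right of 0, Uqcrfs1 at 0.79 and Atp5f1 at 0.52 are filled, and Cox6b2 stands alone at -2.13.

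Within complex III the largest difference was in Uqcrfs1, which encodes the Rieske iron-sulfur protein, the subunit that takes the electron from ubiquinol. The gene lies at chr13:30540308-30545362 on the minus strand (GRCm38). Its level was 36.7 and 38.2 CPM in the young pools and 60.8 and 68.5 CPM in the old pools, from 532, 576, 803 and 836 reads. Both old pools stood well above both young pools, and each age was tight. The log2 fold change was 0.79 ± 0.13 (SE, n = 2 pools an age, edgeR adjusted p = 0.00348). It ranged from 0.70 to 0.87 with each pool left out in turn, and the gene was called under 11 of 12 alternative settings, all but the scaling by total counts. None of its 50-base stretches occurs, by exact match, in an annotated transcript of another gene. The bases before the RefSeq transcription start of Uqcrfs1 hold a full cAMP response element (CRE), shown here because Uqcrfs1 is the called member with the lowest adjusted p and this is the only searched motif in its window. The 30 bases at chr13:30545327-30545356 (GRCm38.p6, minus strand, written 5′ to 3′) have the CRE in capitals and start it at position -29. GENCODE places the first exon 46 bases further upstream, so that in that annotation these letters are transcribed.
Uqcrfs1: cggcgtcgcgcTGACGTCAcaaaccctgcg

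The other core subunits of complex III did not pass the threshold. Uqcrc2, a core protein of the matrix arm, had 55.1 and 56.9 CPM in young and 69.4 and 70.4 CPM in old pools, with no overlap (log2 fold change 0.32 ± 0.12, edgeR adjusted p = 0.191). Its exons overlap those of Pdzd9 on the opposite strand over 504 bases, and 17.6% of its 50-base stretches occur in transcripts of that gene. Its partner core protein Uqcrc1 had 51.5 and 51.0 CPM against 44.4 and 55.4 CPM, and the pools overlapped (-0.04 ± 0.14). Cyc1, the gene of the haem-carrying cytochrome c1, was at 54.1 and 59.2 CPM in young and 65.2 and 48.4 CPM in old pools (0.0038 ± 0.14, edgeR adjusted p = 0.994). The sign of the Cyc1 difference changed with the settings, so it has no direction.

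Among the 5 small subunits, Uqcrb, which helps hold the ubiquinone site, had the largest difference. Uqcrb was at 6.76 and 6.76 CPM in young and 10.6 and 11.5 CPM in old pools, from 98, 102, 140 and 141 reads (0.71 ± 0.22, edgeR adjusted p = 0.0971). The pools of each age were close together and did not overlap, but 25.5% of the 50-base stretches of Uqcrb occur in transcripts of other genes. Uqcrh, the hinge protein near cytochrome c1 and the complex III gene with the most reads, had 67.8, 92.9, 89.3 and 95.5 CPM, with the lower young pool alone outside the range of the others (0.20 ± 0.14, edgeR adjusted p = 0.501). Uqcrq, Uqcr10 and Uqcr11 had log2 fold changes between 0.025 and 0.17, and only the pools of Uqcrq did not overlap.

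Ratios of read counts within a pool do not depend on the scaling between libraries, and the pairs given here were chosen after their values had been seen. The ratio of Uqcrfs1 to Uqcrc1 was 0.712 and 0.748 in young and 1.37 and 1.24 in old ISCs. The ratio to Cyc1 was 0.679 and 0.644 against 0.933 and 1.41, and that to Uqcrc2 was 0.666 and 0.671 against 0.876 and 0.972. All 3 ratios were higher in both old pools, and no test was run on them. Uqcrb also had more reads per Uqcrq read in both old pools (0.327 and 0.383, against 0.236 and 0.252 in young). In complex V, the ratio of Atp5f1 to Atp5d was 0.838 and 0.754 in young and 1.16 and 1.01 in old pools, while that of the catalytic genes Atp5a1 and Atp5b overlapped between ages (0.674 and 0.613, against 0.654 and 0.661).

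**Figure D2:**
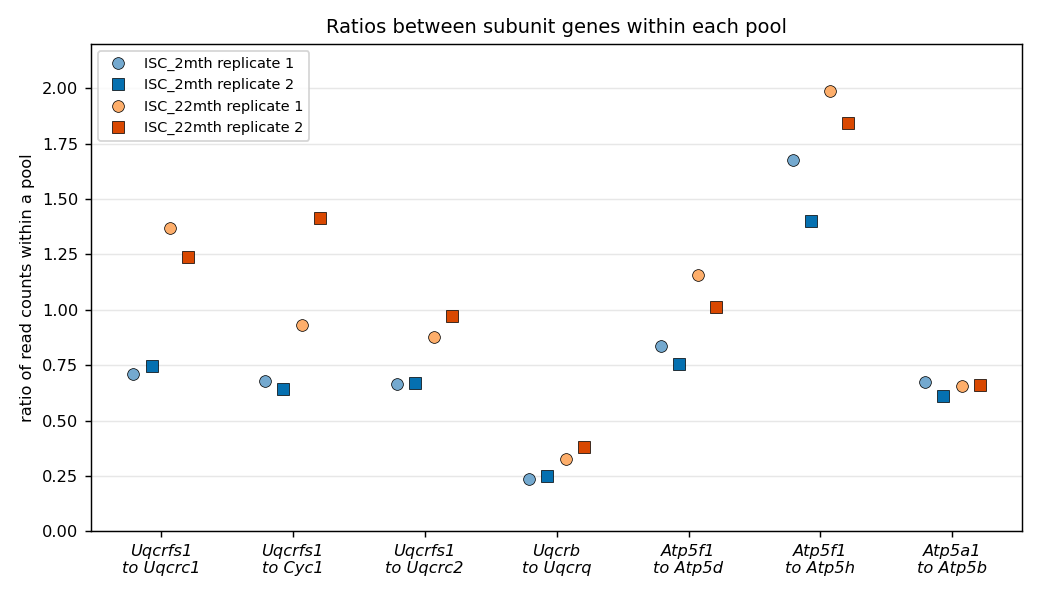
Ratio of read counts of 2 subunit genes within a pool (y axis, linear from 0) for 7 pairs (x axis), with 1 point a pool in blue for ISC_2mth and orange for ISC_22mth. The 3 ratios with Uqcrfs1 are higher in both old pools, and the ratio of Atp5a1 to Atp5b overlaps between ages.

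In complex IV the 10 subunits used in most tissues all had a log2 fold change above 0, between 0.099 and 0.49 with a median of 0.25, and 0 of 10 passed the threshold (beside 2.26% of all genes), with 3 of 10 at an unadjusted p under 0.05 (30%, beside 16.9%). Cox7b, an X-linked small subunit, was at 73.8 and 118 CPM in young and 132 and 137 CPM in old pools. Its 2 young pools lay far apart, and the log2 fold change of 0.49 ± 0.16 (edgeR adjusted p = 0.12) ran from 0.19 to 0.86 with 1 pool left out. Cox7a2, the widely used form of subunit 7a, had 24.4 and 26.6 CPM against 34.1 and 33.5 CPM, with no overlap (0.41 ± 0.14, edgeR adjusted p = 0.155). Cox8a had 65.6 and 68.1 CPM against 69.8 and 96.3 CPM, where 1 old pool made most of the difference (0.31 ± 0.14, edgeR adjusted p = 0.277).

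Cox6a1, the widely used form of subunit 6a, was at 82.8 and 92.6 CPM in young and 94.8 and 112 CPM in old pools, a small step with no overlap (0.24 ± 0.13, edgeR adjusted p = 0.362). Its log2 fold change ran from 0.11 to 0.35 with 1 pool left out. With offsets for GC content and exonic length it was 0.45 (edgeR adjusted p = 0.0836). Cox4i1, the regulatory subunit that binds ATP, differed most between the old pools, with 76.5 and 40.4 CPM beside 50.9 and 47.5 CPM in young pools (0.25 ± 0.20). Its log2 fold change was -0.28 without ISC_22mth replicate 1 and 0.64 without ISC_22mth replicate 2 (edgeR adjusted p = 0.00066), so that the direction depends on the old pool used. The remaining subunits Cox5a, Cox5b, Cox6b1, Cox6c and Cox7c had log2 fold changes from 0.099 to 0.27. In the Cox5 pair, the subunit gene Cox5a had 22.8 and 31.9 CPM in young and 26.3 and 32.7 CPM in old pools, which overlapped. Cox5b, a zinc-binding subunit, had 11.04 and 12.9 CPM against 14.3 and 14.6 CPM, without overlap. Cox7a2l, known for a role in supercomplexes of complexes III and IV and not a subunit of the free enzyme, had 45.6 and 41.5 CPM in young and 51.2 and 56.3 CPM in old pools (0.30 ± 0.13, edgeR adjusted p = 0.249). That role was not examined in these mice.

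The 7 isoforms of restricted use gave a different picture. Cox6b2, the isoform of subunit 6b known from testis, was at 7.59 and 2.85 CPM in young and 0.757 and 1.64 CPM in old pools, from 110, 43, 10 and 20 reads. Both old pools lay below both young pools, and the young pools differed from each other more than the old pools did. The log2 fold change was -2.13 ± 0.48 (edgeR adjusted p = 0.0232). The call was lost without ISC_2mth replicate 1, at -1.25 (edgeR adjusted p = 0.535). It was also lost with voom with sample quality weights and all 4 pools, at -2.03 (adjusted p = 0.10). Cox6b1, the widely used form, had 48.98 and 47.05 CPM in young and 45.1 and 57.8 CPM in old pools, which overlapped (0.10 ± 0.14). The reads of Cox6b2 for each read of Cox6b1 were 0.155 and 0.0606 in young and 0.0168 and 0.0283 in old pools. No stretch of Cox6b2 is shared with another gene. Its upstream 110 bases are shown because it is the only member that fell. They lie at chr7:4753095-4753204 (GRCm38.p6, minus strand), directly before the start of the gene at chr7:4751792-4753094, with the reverse complement of a CCAAT box in capitals.
Cox6b2: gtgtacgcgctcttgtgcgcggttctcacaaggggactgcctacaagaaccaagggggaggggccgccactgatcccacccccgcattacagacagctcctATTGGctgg

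Cox7a1, the isoform of subunit 7a known from heart and skeletal muscle, had few reads in every pool (22, 18, 42 and 31, or 1.52, 1.19, 3.18 and 2.54 CPM). Both old pools were higher (1.07 ± 0.45), yet the edgeR adjusted p was 0.231. Per kilobase of exon its mean level was 2.53 CPM in young and 5.34 CPM in old ISCs, far under the 27.0 and 35.8 CPM of Cox7a2. Markers of muscle summed to 22 and 7 counts in young pools and to 0 and 3 counts in old pools, with 4 of 6 at 0 in every pool. The other restricted isoforms were close to absent: Cox4i2 (lung), Cox7b2 and Cox8c (testis) had 0 reads in every pool, Cox6a2 (muscle) had 1 read in 1 old pool, and Cox8b (muscle) had 1 read in each old pool. A count of 0 allows up to 3 counts, or 0.199 to 0.246 CPM, in counting error alone. Their widely used counterparts had a mean of at least 31.8 CPM per kilobase of exon in young ISCs, the lowest being Cox4i1.

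**Figure D3:**
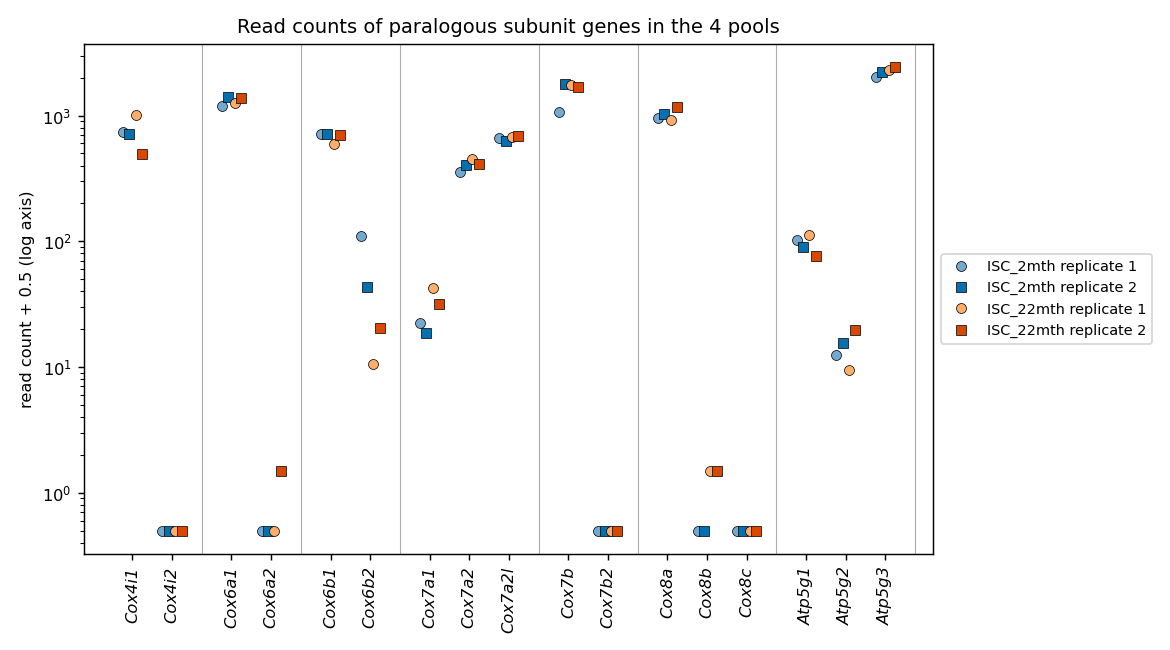
Read counts plus 0.5 (y axis, log scale) of the paralogous subunit genes (x axis, 1 block a family) in each of the 4 pools. Cox4i2, Cox7b2 and Cox8c lie at 0 reads in every pool, Cox6b2 goes from 110 and 43 reads in young to 10 and 20 in old pools, and Atp5g3 is far above Atp5g1 and Atp5g2.

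Complex V had the largest median, and 16 of its 17 genes had a log2 fold change above 0. In the F1 head, where ATP is made, Atp5a1 (the alpha subunit) was at 429 and 441 CPM in young and 533 and 599 CPM in old pools. Atp5b (the catalytic beta subunit) was at 636 and 720 CPM in young and 815 and 907 CPM in old pools. These genes had more reads than any other member, and in both the old pools stood above the young pools. Their log2 fold changes were 0.38 ± 0.11 (edgeR adjusted p = 0.0701) and 0.35 ± 0.11 (edgeR adjusted p = 0.0996). Voom with sample quality weights called both, with adjusted p = 0.0208 for Atp5a1 and 0.037 for Atp5b, and edgeR did so for Atp5a1 when mitochondrially encoded and ribosomal RNA-like genes were left out of the fit (log2 fold change 0.38, adjusted p = 0.0436). Of 12 alternative settings, 4 called Atp5a1 and 2 called Atp5b. With the GC and length offsets the edgeR adjusted p was 0.112 and 0.258. With 1 pool left out the log2 fold change ran from 0.30 to 0.46 for Atp5a1 and from 0.26 to 0.43 for Atp5b. Atp5c1, the gamma subunit that turns inside the head, had 112 and 145 CPM in young and 177 and 159 CPM in old pools (0.39 ± 0.13, edgeR adjusted p = 0.131). It was 0.22 without ISC_2mth replicate 1 (edgeR adjusted p = 0.73), and it passed the threshold without ISC_2mth replicate 2 (0.58, edgeR adjusted p = 0.0485) and without ISC_22mth replicate 2 (0.46, edgeR adjusted p = 0.0128). Atp5d and Atp5e, which sit at the foot of the rotor, overlapped between ages, with log2 fold changes of 0.08 and 0.32. That of Atp5e ran from 0.11 to 0.58 with 1 pool left out.

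In the peripheral stalk, which keeps the head from turning, Atp5f1 (subunit b) passed the threshold. It was at 41.1 and 42.1 CPM in young and 54.5 and 64.9 CPM in old pools, from 595, 636, 720 and 793 reads. The old pools stood above the young pools, and lay further apart from each other than the young pools did. The log2 fold change was 0.52 ± 0.13 (edgeR adjusted p = 0.0477), from 0.39 to 0.64 with 1 pool left out, and the gene was called under 6 of 12 alternative settings. With total counts the log2 fold change was 0.032 (edgeR adjusted p = 0.88). The call was also lost under DESeq2 (adjusted p = 0.0744), with offsets for GC content and exonic length (0.39, edgeR adjusted p = 0.196) and with the upper quartile, filterByExpr or at least 10 counts in every library (edgeR adjusted p = 0.0734, 0.0585 and 0.0555). Leaving out 1 pool lost it without ISC_2mth replicate 1, ISC_2mth replicate 2 or ISC_22mth replicate 2 (edgeR adjusted p = 0.266, 0.122 and 0.117). Exons of Atp5f1 overlap those of Wdr77 on the opposite strand over 337 bases. The strand setting of the counting is not given in the sources used here, and Wdr77 had a log2 fold change of 0.34 ± 0.18 (edgeR adjusted p = 0.356). The 30 bases at chr3:105959317-105959346 (GRCm38.p6, minus strand) hold the GC box nearest to the RefSeq start of Atp5f1, in capitals, at position -71. They are shown as the counterpart of the Uqcrfs1 window in the second member that rose, and all of them are exon in 1 GENCODE transcript of the gene.
Atp5f1: atagtggggaggGGGCGGggaaaaagccga

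The other stalk subunits had smaller differences. Atp5j (subunit F6) was at 36.2 and 39.7 CPM in young and 50.2 and 51.1 CPM in old pools, with no overlap (0.42 ± 0.13, edgeR adjusted p = 0.111). Its exons overlap those of Gabpa on the opposite strand over 397 bases. Atp5o, the subunit that gives oligomycin sensitivity, and Atp5h (subunit d) had log2 fold changes of 0.21 and 0.20. With 1 pool left out they ran from 0.084 to 0.34 for Atp5o and from 0.0067 to 0.37 for Atp5h. With the GC and length offsets that of Atp5h was 0.076. The ratio of Atp5f1 to Atp5h was 1.68 and 1.40 in young and 1.99 and 1.84 in old pools.

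The c-ring is made of 1 protein encoded by 3 genes that differ in their import sequence. Atp5g3 took 94.7% and 95.5% of the reads of the 3 genes in young and 94.97% and 96.2% in old pools, with exact 95% binomial intervals between 93.6% and 96.9% that cover counting error only. Atp5g1 took 4.76%, 3.83%, 4.66% and 3.01%, and Atp5g2 took between 0.374% and 0.754%. The shares overlapped between ages for all 3 genes, and per exonic length Atp5g3 made up 97.2% in young and 97.5% in old ISCs. In level, Atp5g3 was at 138 and 147 CPM in young and 173 and 199 CPM in old pools (0.38 ± 0.12, edgeR adjusted p = 0.105). Atp5g1 had 101, 89, 112 and 76 reads and Atp5g2 had 12, 15, 9 and 19, with overlapping pools in both. Stretches shared with other genes made up 38.3% of Atp5g2 and 11.1% of Atp5g1, but 0% of Atp5g3.

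Of the membrane subunits, all 3 had both old pools above both young pools (beside 24% of all genes), and none passed the threshold. Atp5k (subunit e, which links pairs of the enzyme) was at 29.5 and 33.7 CPM in young and 39.7 and 45.5 CPM in old pools (0.43 ± 0.14, edgeR adjusted p = 0.128). Atp5j2 and Atp5l (subunits f and g) had log2 fold changes of 0.28 and 0.13, the latter with an edgeR adjusted p of 0.81. For Atp5l the order of the pools was a near tie, with 7.52 and 8.75 CPM in young and 9.08 and 8.76 CPM in old pools. Of the 2 genes that carry an Atp5 name without being classical subunits, Atp5s (coupling factor B) was at 6.62 and 3.45 CPM in young and 8.93 and 10.4 CPM in old pools, from 96, 52, 118 and 127 reads. Its pools did not overlap (0.94 ± 0.28, edgeR adjusted p = 0.0837), but the young pools were nearly as far apart as the ages, and the log2 fold change without 1 pool ran from 0.54 to 1.49. Atp5sl, now known as a complex I assembly factor, had both old pools below both young pools (118 and 149 reads against 104 and 90), with a log2 fold change of -0.24 ± 0.22 (edgeR adjusted p = 0.631).

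Cycs, the gene of cytochrome c, had only 17, 21, 24 and 17 reads, or 1.17 to 1.82 CPM. The log2 fold change was 0.32 ± 0.55 (edgeR adjusted p = 0.82), so a difference of the size seen in the other members was not detectable at this depth. All 266 of the 50-base stretches of its coding sequence (100%) occur in transcripts of other genes, and how reads that align to several places were counted is not given in the sources used here. The stretch at chr6:50565312-50565361 (GRCm38, minus strand) is shown because it occurs in transcripts of 6 other genes.
Cycs: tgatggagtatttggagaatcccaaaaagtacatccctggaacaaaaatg

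Summed over its nuclear members, complex III had 367 and 403 CPM in young and 439 and 459 CPM in old pools. Complex IV had 492 and 550 CPM in young and 613 and 658 CPM in old pools. Complex V had 1632 and 1806 CPM in young and 2077 and 2312 CPM in old pools. In all 3 complexes both old pools were above both young pools, with log2 ratios of the means of 0.22, 0.29 and 0.35. Taken relative to the counts outside mitochondrial and ribosomal RNA-like genes, without TMM, the log2 ratios were 0.16, 0.22 and 0.29. The mitochondrially encoded partners differed by more: reads of mt-Cytb per read on nuclear complex III genes were 22.7 and 25.3 in young and 41.5 and 33.0 in old pools, and those of mt-Co1 per read on nuclear complex IV genes were 26.9 and 28.3 against 43.2 and 38.1. Of mt-Co1, 51.1% of the stretches are shared with other genes, and mt-Co2, mt-Co3, mt-Atp6 and mt-Atp8 were listed with at most 1 read in any pool, so complex V has no such ratio. Shared stretches make up 100%, 99.9% and 99.5% of mt-Co2, mt-Co3 and mt-Atp6 but 0% of mt-Atp8, and how reads that align to several places were counted is not given in the sources used here.

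**Figure D4:**
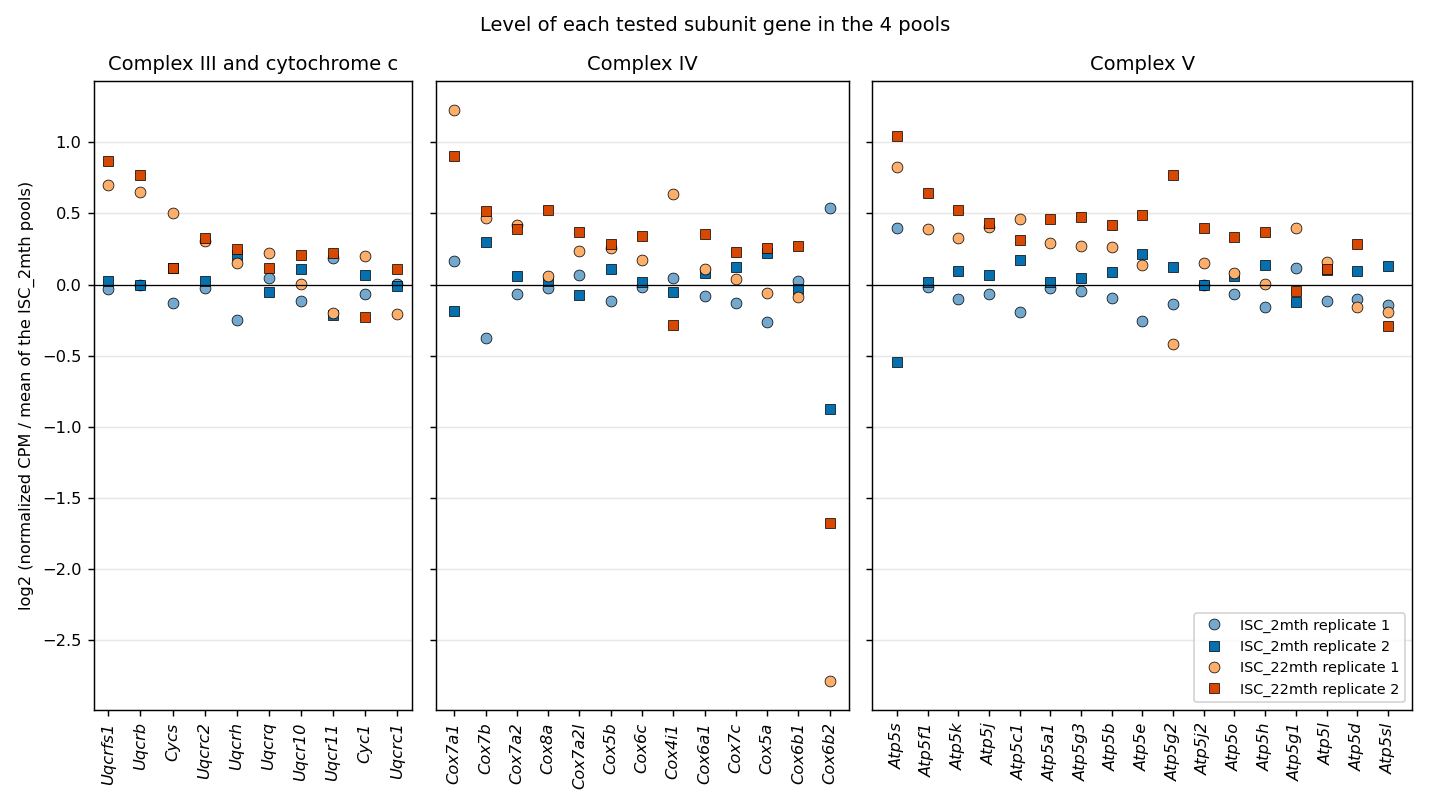
Level of each tested member in each pool (y axis, log2 of the normalized CPM over the mean of the 2 ISC_2mth pools) by complex (x axis, genes ordered by the log2 fold change). Most orange points (ISC_22mth) lie above the blue points (ISC_2mth), the old pools of Uqcrfs1 stand clear of the young pools, and those of Cox4i1 fall on either side of them.

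The log2 fold change varied with base composition, among the members as among all genes. Over 39 members with a GC value the Spearman rho with the GC content of the annotated transcripts was -0.41, and over 13335 genes it was -0.23, where all points share the same 4 libraries. Members at up to 47% GC had a median log2 fold change of 0.35 (n = 10), those over 47% and up to 53% one of 0.29 (n = 16), and those over 53% one of 0.24 (n = 13), beside 0.097, -0.0032 and -0.15 over all genes in the same bands. The members thus lay above the median of all genes in each band. With offsets for GC content and length the rho over members was 0.048, and the medians of complexes III, IV and V were 0.16, 0.25 and 0.27. Uqcrfs1 kept its call with these offsets (0.66, edgeR adjusted p = 0.0153), as did Cox6b2 (-2.10, edgeR adjusted p = 0.0423). Members without a call moved either way. Cox7b went from 0.49 to 0.29, Uqcrc2 from 0.32 to 0.19 and Cox7a2l from 0.30 to 0.19. Cox6a1 went from 0.24 to 0.45 and Cox8a from 0.31 to 0.49. The 14 tested members with no stretch shared with another gene had a median of 0.24, and the 25 with some had one of 0.28.

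**Figure D5:**
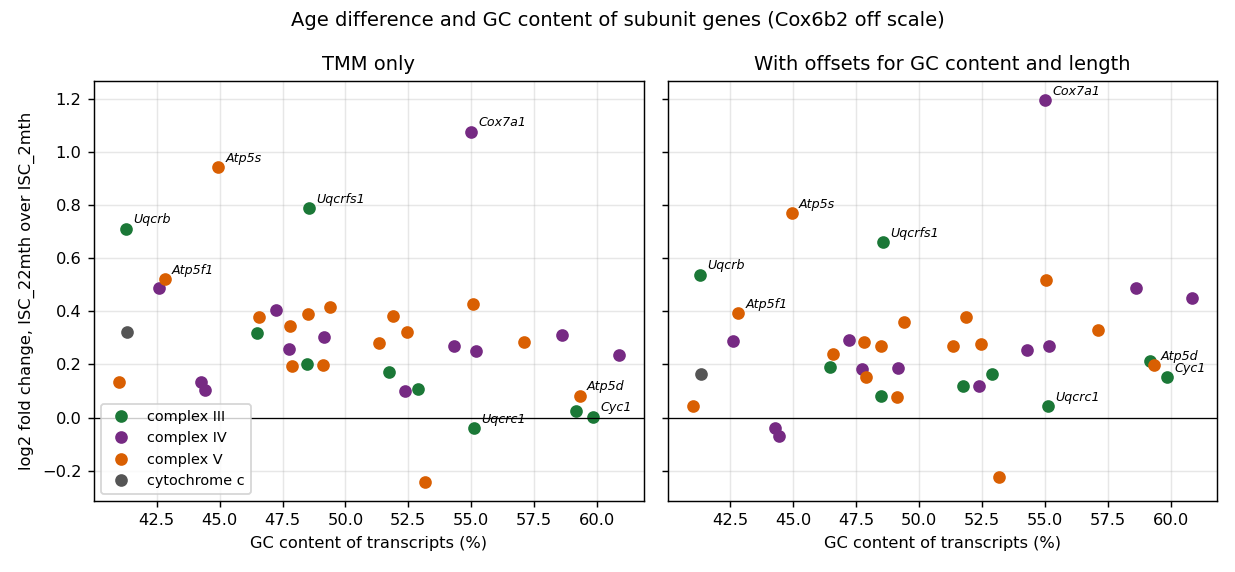
Log2 fold change (y axis) against GC content of the transcripts in percent (x axis) for the tested members with a GC value, coloured by complex, with TMM alone (left) and with offsets for GC content and length (right). On the left values decline as GC content rises, on the right they do not, and most points stay above 0 in both. Cox6b2, at -2.13 and -2.10, is off the scale.

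RefSeq promoter windows, from 250 bases before to 50 bases after a start (GRCm38.p6), were found for 35 of the 45 members, and 1 window a gene, the first listed, was searched on both strands for motifs of factors known for respiratory genes. The ETS core CCGGAAG, bound by GABP, was in 9 windows (25.7%, beside 9.12% of 27025 windows of all genes). The NRF1 letters GCGCATGCG were in 7 windows, those of Atp5g2, Atp5k, Atp5l, Cox6a1, Cycs, Uqcr11 and Uqcrc1 (20% beside 1.81%). The CRE letters TGACGTCA were in those of Cycs and Uqcrfs1 (5.71% beside 1.88%), and the YY1 letters AAGATGGCG in those of Atp5j2 and Atp5sl (5.71% beside 1.49%). CCAAT was in 57.1% of windows beside 37.9%, and the GC box GGGCGG in 37.1% beside 35.9%. None of these strings contains another on either strand, and a match is a description of the letters only. The genes with the NRF1 letters had log2 fold changes from -0.04 (Uqcrc1) to 0.43 (Atp5k), on both sides of the median of the members. As examples of windows with such letters, the 30 bases around the NRF1 letters of Atp5k (which overlap their own reverse complement) at chr5:108434430-108434459 and 110 bases before the RefSeq start of Cox6a1 at chr5:115348959-115349068 (both minus strand) are given with motifs in capitals. In GENCODE, 23 of the 110 bases of Cox6a1 and part of the Atp5k stretch are exon. In Cox6a1 these are a CCAAT box, a GC box and an ETS core, the last 2 as reverse complements.
Atp5k: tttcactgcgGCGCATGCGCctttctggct
Cox6a1: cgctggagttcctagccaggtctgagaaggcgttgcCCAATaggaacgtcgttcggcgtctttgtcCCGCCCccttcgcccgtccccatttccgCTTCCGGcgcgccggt

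Genes that assemble or regulate these complexes were listed separately. Of 39 assembly and accessory genes 36 were tested, 0 passed edgeR's threshold in either direction (beside 2.26% of all genes), and voom with sample quality weights called 1 (beside 2.34%). At an unadjusted p under 0.05 there were 6, all higher in old ISCs (16.7%, beside 9.26% of all genes higher and 7.65% lower). The 6 included Atpif1, the inhibitor that stops complex V from running backwards, with 1025, 1196, 1257 and 1362 reads (0.46 ± 0.13, edgeR adjusted p = 0.0671). They also included Tmem70, which is needed to build complex V, with 255, 323, 347 and 387 reads (0.57 ± 0.16, edgeR adjusted p = 0.0771). In both, the old pools lay above the young pools after scaling. The median log2 fold change of the list was 0.18, with 0.062 for complex III, 0.18 for complex IV and 0.26 for complex V factors. With the GC and length offsets the medians by complex were 0.041, 0.13 and 0.13. The list's median was 0.069 without ISC_22mth replicate 2, 0.099 without ISC_2mth replicate 1 and 0.090 with the GC and length offsets.

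Of 20 transcription factors and coactivators of respiratory genes 19 were tested, and 14 of them had a log2 fold change below 0, with a median of -0.17, where 49.5% of all genes were above 0. That median was -0.068 without ISC_2mth replicate 1 and -0.10 without ISC_2mth replicate 2. The gene Nfe2l2, which encodes a factor of the antioxidant response, was the 1 that passed (beside 2.26% of all genes), with 2117, 2675, 2881 and 3002 reads (0.52 ± 0.12, edgeR adjusted p = 0.0299), a call that was lost with total counts (0.036, edgeR adjusted p = 0.845), with the GC and length offsets (0.42, edgeR adjusted p = 0.124) and without ISC_2mth replicate 1. At an unadjusted p under 0.05, 3 of 19 were higher (beside 9.26% of all genes) and 5 lower (beside 7.65%). The 3 were Nfe2l2, Gabpb1 (0.47) and Esrrg (0.28). The 5 were Nrf1 (-0.46), Pprc1 (-0.50), Ppard (-0.51), Mef2d (-0.35) and Hcfc1 (-0.35).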

How the data were processed

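Sorted ISCs gave 4 RNA libraries, each from a pool of 5 animals. The authors trimmed the reads (Trimmomatic 0.30), aligned them to GRCm38 (STAR 2.4.2a), counted them in exons of GENCODE vM15 genes (featureCounts) and deposited raw counts per gene, unnormalized. Genes that any pool had at over 5 reads and over 1 CPM, the filter of the study's Methods, were tested with edgeR 4.0.16 (R 4.3.3): TMM, glmQLFit and glmQLFTest over all genes, no covariate. Alternatives, with limma 3.58.1 and DESeq2 1.42.0 among the tools, are given in the closing section. Offsets came from lowess fits (span 0.3) on GC content and exonic length. Positions, GC content and shared 50-base stretches (exact match, either strand) came from GENCODE vM21, matched by symbol, and Atp5o matched 2 genes and got none. The fit was tested on simulated data.

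Members, lists and ratios were chosen with earlier results of these data known. Named with full values are members with an adjusted or unadjusted p under 0.05, the 2 with most reads a complex, paralogue families, Cyc1 and Cycs, and, of the assembly and regulator lists, the called or else the 2 lowest-p genes. Uqcrc1, Atp5sl, Atp5f1's neighbour Wdr77 and the ratio partners were added after their values were seen. Equal replicate numbers stand for different animals. Deviations of same-numbered pools did not correlate over all genes tested (-0.00015), and over the tested members the correlation was -0.18.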

Additional observations from a re-analysis of the deposited data

How the results depend on the processing

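With 2 pools an age and from 3852178 to 4593004 counts outside mitochondrial genes, the members' median of 0.27 lies under 0.52, the smallest log2 fold change called among them, and genes with few reads (Cox7a1, Atp5g2, Cycs) are read with wide errors. Over all genes, 309 were called, and 197 with DESeq2, 611 with edgeR's likelihood ratio test, 4650 with total counts (96 higher and 4554 lower), 554 with no filter, 173 with the GC and length offsets and 151 to 710 with 1 pool left out. Called members numbered 3, then 7 with no filter and 2 to 11 with 1 pool left out. Assembly genes called were 0, then 1 with voom, 2 with the likelihood ratio test, 7 with total counts, all lower, 2 with no filter and 0 to 3 with 1 pool left out. Regulators called were 1, then 2 with the likelihood ratio test, 13 with total counts, all lower, 0 with the offsets and 0 to 3 with 1 pool left out. No label pairs the pools. With the replicate numbers as a replicate block 623 genes, 5 members, 2 assembly genes and 3 regulators were called. DESeq2's size factors and TMM without mitochondrial genes kept every count within 1.5 times.

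The complex III median was 0.13 with the upper quartile, 0.15 with at least 10 counts in every library, 0.20 to 0.22 with 1 pool left out, and 0.11 over its 5 members with no shared stretch, a setting chosen after seeing the data. With total counts the medians of complexes III, IV and V were -0.32, -0.23 and -0.16, as the scaling lowered all genes. Under it 6 of 40 members were above 0, and the log2 fold changes that turned were -0.11 for Atp5a1, -0.14 for Atp5b, -0.097 for Atp5c1, -0.30 for Atp5g1, -0.19 for Atp5g2, -0.11 for Atp5g3, -0.071 for Atp5j, -0.058 for Atp5k, -0.25 for Cox4i1, -0.38 for Cox5a, -0.22 for Cox5b, -0.25 for Cox6a1, -0.39 for Cox6b1, -0.084 for Cox7a2, -0.19 for Cox7a2l, -0.18 for Cox8a, -0.49 for Cyc1, -0.16 for Cycs, -0.17 for Uqcrc2, -0.28 for Uqcrh, -0.38 for Uqcr10, -0.47 for Uqcr11, -0.32 for Uqcrq, -0.23 for Cox6c, -0.35 for Cox7c, -0.40 for Atp5d, -0.16 for Atp5e, -0.29 for Atp5h, -0.21 for Atp5j2, -0.35 for Atp5l and -0.27 for Atp5o. Cyc1, at 0.0038, also turned to -0.0073 with voom, -0.00013 with DESeq2, -0.036 with the upper quartile, -0.0022 with no filter, -0.0019 with filterByExpr, -0.018 with at least 10 counts and -0.0092 with the replicate block, and Cox5a to -0.070 with the offsets. With 1 pool left out, the range was -0.23 to 0.20 for Cyc1, -0.045 to 0.40 for Atp5g1, -0.41 to 0.77 for Atp5g2, -0.28 to 0.64 for Cox4i1, -0.12 to 0.36 for Cox5a, -0.088 to 0.27 for Cox6b1, -0.0075 to 0.44 for Uqcrh, -0.20 to 0.24 for Uqcr11, -0.21 to 0.11 for Uqcrc1, -0.15 to 0.29 for Atp5d and -0.0015 to 0.22 for Uqcr10. Cox5a was also -0.060 and Cyc1 -0.059 in 1 such fit. The cause was not tested. Per exonic length, Atp5g3, Atp5g1 and Atp5g2 took 97.2%, 1.95% and 0.806% of the c-ring level in young ISCs, and Atp5g3 and Atp5g1 97.5% and 1.74% in old ISCs.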
